A study of Gallus gallus with 6 samples.

Results

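The dermal papilla of the growing chicken feather was compared with the feather epithelium that lies over it, in order to describe which signals, receptors, transcription factors and metabolic enzymes stood apart between them. The comparison used 1 library of each tissue, counted per RefSeq transcript record, and kept every record with at least 20 counts in either library. That left 6362 of the 10964 records seen in any of the 6 libraries of the series, and 5983 of the 6362 could be given a gene name. At the edge of the count minimum, 81 kept records had exactly 20 counts in their higher library, such as TGFA with 0 in the papilla and 20 in the epithelium. Another 71 records had 19 and were left out, such as GDF10 with 19 counts in the papilla and 4 in the epithelium.

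The growth-phase papilla and the growth-phase epithelium were both dissected from feather follicles of Gallus gallus, and total RNA was extracted with Trizol and sequenced on Illumina libraries. The labels give no strain, age, sex, body region or number of birds, and name no treatment for these samples. The other libraries of the series, used here for context, were the resting-phase papilla, regeneration-phase feather follicle 2 and 4 days after wounding, and the growth-phase mesenchymal pulp. Every group had 1 library, so no difference given here has a replicate check, and no p-value was computed.

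The dermal papilla is a condensed knot of mesenchyme at the base of the follicle. It instructs the epithelium around it to proliferate and to form the feather, and it receives signals from that epithelium in return, through secreted Wnt, BMP, FGF and hedgehog ligands and the receptors that read them. The epithelium multiplies in a collar next to the papilla, then branches into barbs, takes up pigment from melanocytes and cornifies. A ligand made on one side with its receptor on the other is the usual form of such an exchange, whereas transcription factors and metabolic enzymes mark the state of each tissue.

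Listed counts summed to 1425395 in the papilla and 2428052 in the epithelium, which were 41.8% and 40.0% of the library totals recovered from the deposited RPM values. A count of 2 was the lowest listed, so an unlisted record was taken as 0, and a fold against it is a bound that assumes 3 counts in that library. Levels are in CPM, scaled counts relative to library size, with TMM (trimmed mean of M values) as the scaling, and a record was called higher or lower when it was at least 2-fold apart on CPM plus 1. For a single gene the fold is the ratio of its scaled counts, followed by its exact 95% interval in brackets. Those intervals cover counting error alone and say nothing of the spread between birds. On this rule 1588 records (25.0%) were higher in the papilla, 1443 (22.7%) were lower and 3331 lay within 2-fold, with a median log2 ratio of -0.05. The deposited RPM values (reads relative to the library total), which lack the TMM step, gave 2233 higher and 861 lower and a median of 0.45. Directions of genes near a ratio of 1 therefore depend on the scaling, and are given as within 2-fold. The counts of each list below are to be read against 25.0% higher and 22.7% lower. Members and lists were chosen with earlier results of these data known, so those counts describe the listed members only. List counts with the deposited values are to be read against 2233 higher and 861 lower of the 6362 records, which lean to the papilla. Differences of at least 10-fold numbered 365 records higher and 167 lower. The epithelium table was drawn from a deeper library, and the scaling factors were 0.997 for the papilla and 0.688 for the epithelium. The leading epithelial record, a scale keratin-like gene, took 10.1% of its listed counts.

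**Figure D1:**
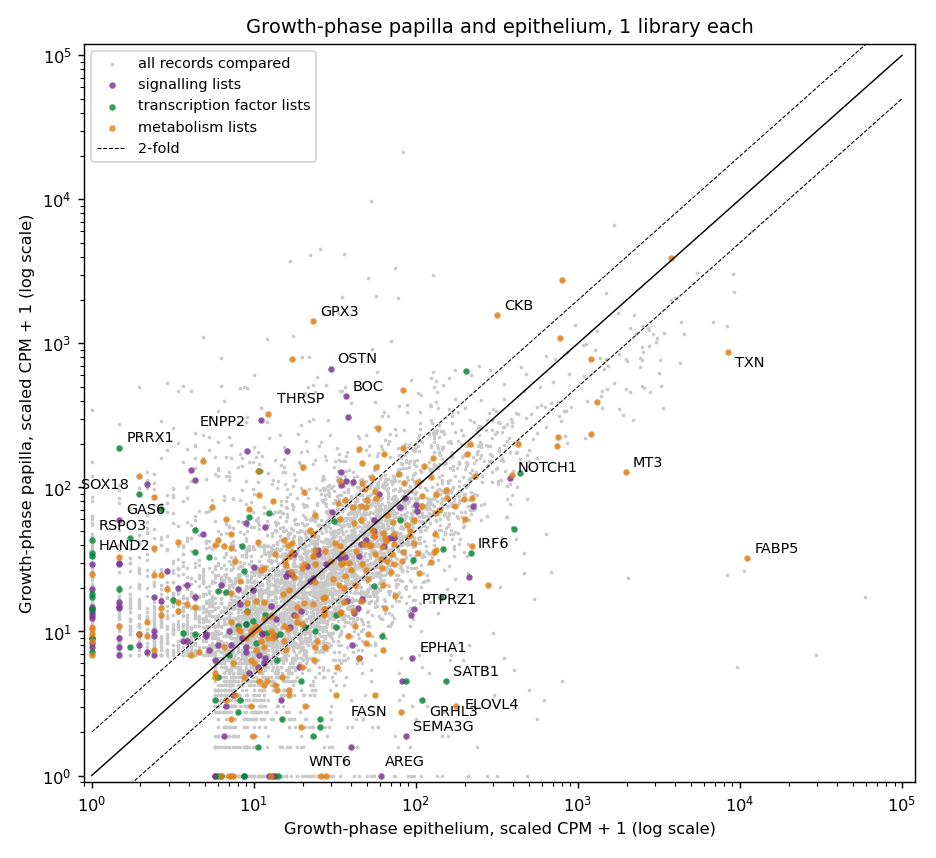
Scaled CPM plus 1 of each of the 6362 records in the growth-phase papilla (vertical, log scale) and the growth-phase epithelium (horizontal, log scale), 1 library each. Coloured points are members of the signalling, transcription factor and metabolism lists, the solid line marks equal levels and the dashed lines 2-fold. PRRX1, GPX3 and OSTN stand far above the line and FABP5, ELOVL4 and SATB1 far below it, whereas points along the axes are records not listed in 1 library.

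Marker genes were read first as a check of the labels. All 13 measured fibroblast markers were higher in the papilla, with a summed level of 7019 CPM in the papilla against 165 CPM in the epithelium; the fibroblast receptor PDGFRA was unlisted in both. Of 15 measured keratinocyte markers 11 were lower in the papilla, 1 was higher and 3 lay within 2-fold. The 15 summed to 878 CPM in the papilla against 3009 CPM in the epithelium. KRT14, a keratin of basal keratinocytes, was the main member in the papilla with 2094 counts, against 1996 in the epithelium, a ratio of 1.29 (1.21 to 1.37) that lay within 2-fold. The tight junction gene CLDN1 and the adhesion gene EPCAM had 66 and 54 counts in the papilla and 1383 and 2227 in the epithelium. Keratins have near-identical copies, so the assignment of their reads is uncertain.

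Other cell types differed as well. Smooth muscle and pericyte markers were higher in the papilla in 10 of 11 (sum 24230.0 CPM in the papilla and 261 CPM in the epithelium), endothelial markers in 8 of 8 (sum 386 and 18.7 CPM in the same order) and leukocyte markers in 5 of 5. Melanocyte markers were lower in the papilla in 7 of 7, with a sum of 9.12 CPM in the papilla against 807 CPM in the epithelium, and TYR, TYRP1 and MLANA were unlisted in the papilla. Fewer cells of a type and less RNA per cell cannot be told apart in such bulk tissue. The share of these cells in the results that follow was not tested.

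Of 140 textbook ligand and receptor pairs, 26 had both members measured, and 9 had both at least 2-fold apart. In 3 the ligand was higher in the papilla and the receptor higher in the epithelium, in 3 the ligand was lower and the receptor higher in the papilla, in 3 both were higher in the papilla, and in 0 were both lower. Single genes were called higher in 25.0% and lower in 22.7% of all records, so the pair counts are a description of these members only. The pair counts rest on low counts in several members: with a minimum of 200 counts they were 1, 0 and 0.

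Pleiotrophin and its receptor were the pair with papilla ligand and epithelial receptor that kept that place at the higher minimum. PTN, a heparin-binding growth factor, had 357 counts in the papilla and 5 in the epithelium, 87.6-fold (37.2 to 272) higher. PTPRZ1, a receptor tyrosine phosphatase that binds PTN, had 45 counts in the papilla against 404 in the epithelium, 7.32-fold (5.37 to 10.2) lower. The heparan sulfate carrier SDC3, which also binds PTN, went with its ligand: 20 counts in the papilla and 6 in the epithelium, 4.09-fold (1.58 to 12.4) higher. The other pairs of this direction joined thrombospondin to its receptors. THBS1, a matrix glycoprotein, had 209 counts in the papilla and 63 in the epithelium, 4.07-fold (3.06 to 5.49) higher. Its receptor CD36, which is also a fatty acid carrier, had 3 counts in the papilla and 37 in the epithelium, 10.1-fold (3.18 to 50.9) lower, and CD47 had 8 and 25 in the same order, 2.55-fold (1.11 to 6.53) lower.

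In the opposite direction, SHH and WNT5A were lower in the papilla while receptors for them were higher. Sonic hedgehog, a morphogen of the growing feather, was unlisted in the papilla and had 48 counts in the epithelium. Its co-receptor BOC had 1462 counts in the papilla and 150 in the epithelium, 11.96-fold (10.1 to 14.2) higher, and was by far the better covered of the hedgehog co-receptors. CDON, the related co-receptor, had 21 counts in the papilla and 5 in the epithelium, 5.16-fold (1.89 to 17.5) higher. The receptor PTCH1 and the transducer SMO lay within 2-fold, with 73 and 93 counts in the papilla and 88 and 85 in the epithelium. The ratio of PTCH1 was 1.02 (0.736 to 1.41). SCUBE3, a secreted protein of the family that releases hedgehog, was 4.91-fold (2.697 to 9.55) higher in the papilla. WNT5A, a ligand of the planar polarity branch of Wnt signalling, had 28 counts in the papilla and 164 in the epithelium, 4.77-fold (3.18 to 7.403) lower. The receptor FZD2 had 56 counts in the papilla and 6 in the epithelium, 11.4-fold (4.95 to 32.5) higher. In the growth-phase pulp WNT5A stood at 88.06 CPM and FZD2 at 20.81 CPM, for each gene above both the papilla and the epithelium.

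Both members were higher in the papilla in 2 vessel and clearance pairs besides PTN with SDC3. The angiopoietin ANGPT2 had 23 counts in the papilla and 2 in the epithelium, 14.1-fold (3.49 to 124) higher, and its receptor TEK had 39 in the papilla and none listed in the epithelium. TEK is itself an endothelial marker, and that list was higher in the papilla in 8 of 8 members. Protein S (PROS1), a bridging ligand for dying cells, had 190 counts in the papilla and 33 in the epithelium, 7.07-fold (4.86 to 10.6) higher, and its receptor MERTK had 86 and 8 in the same order, 13.2-fold (6.404 to 31.5) higher.

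In 17 measured pairs at least 1 member lay within 2-fold. The fibroblast growth factor FGF7, which acts on epithelium in mammals, had 46 counts in the papilla and 2 in the epithelium, 28.2-fold (7.38 to 240.1) higher, while its receptor FGFR2 had 144 in the papilla and 202 in the epithelium, a ratio of 0.875 (0.702 to 1.09). Counts are per record, so splice forms of FGFR2 were not compared. RSPO3, an R-spondin that amplifies Wnt signals, had 154 counts in the papilla and none listed in the epithelium, at least 63.0-fold higher. Its receptor LGR4 had 107 counts in the papilla and 138 in the epithelium, a ratio of 0.952 (0.732 to 1.23). In the growth-phase pulp LGR4 stood at 5.16 CPM, against 31.48 CPM in the papilla and 33.08 CPM in the epithelium. Keratinocyte markers summed to 878 CPM in the papilla and 150 CPM in the pulp, and their part in the LGR4 level was not tested. IGF2, a growth factor of the insulin family, had 97 counts in the papilla and none listed in the epithelium, against 79 and 62 counts of its receptor IGF1R in papilla and epithelium. BMP7 had 380 counts in the papilla and 106 in the epithelium, 4.40-fold (3.54 to 5.51) higher, and its type I receptor ACVR1 lay within 2-fold at a ratio of 0.911 (0.741 to 1.12). WNT6 ran the other way: it was unlisted in the papilla and had 182 counts in the epithelium, at least 49.4-fold lower, with FZD7 within 2-fold, a ratio of 1.59 (1.14 to 2.24).

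**Figure D2:**
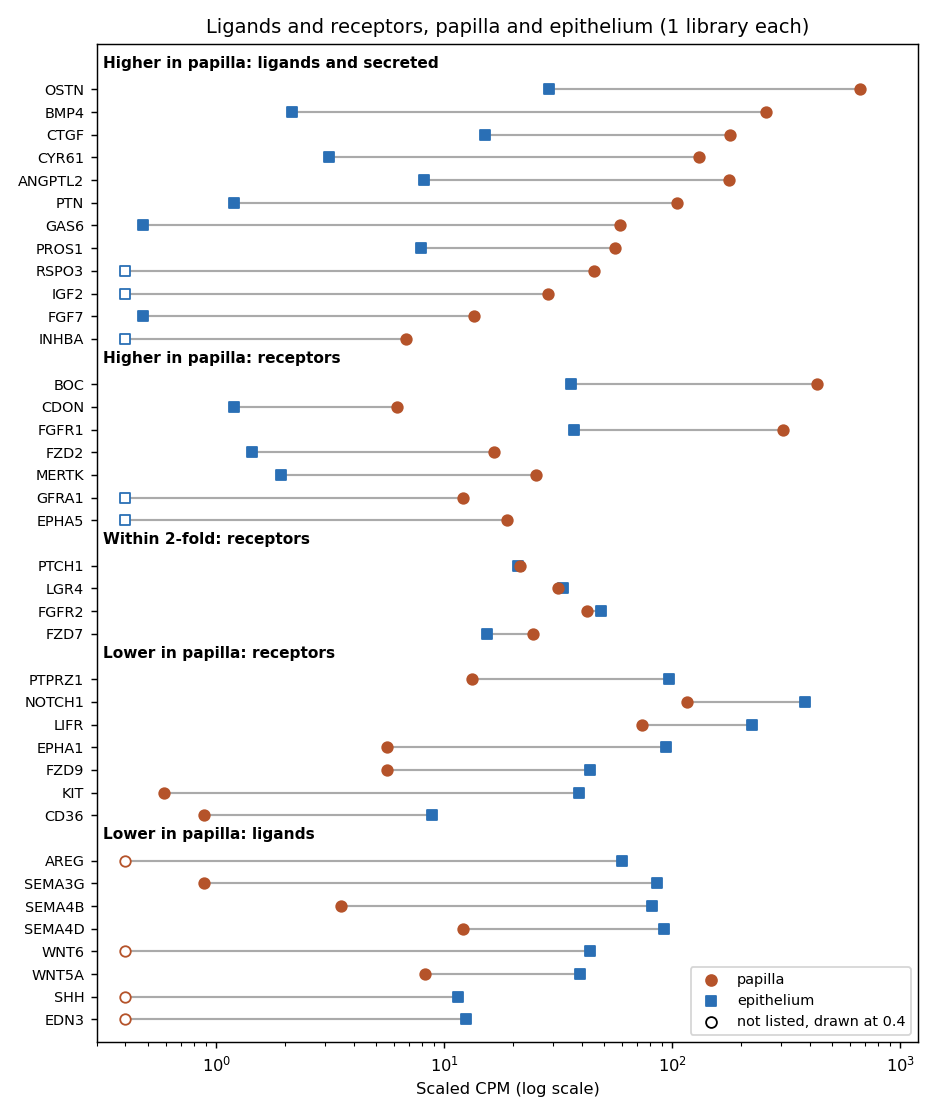
Scaled CPM (log scale) of selected ligands and receptors in the growth-phase papilla (circles) and the growth-phase epithelium (squares), 1 library each, joined by a line for each gene. Open symbols mark genes not listed in that library, drawn at 0.4 CPM. Ligands such as PTN, GAS6 and RSPO3 stood higher in the papilla and AREG, SEMA3G and WNT6 lower, whereas PTCH1, LGR4 and FGFR2 nearly coincided.

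Growth factor ligands were higher in the papilla in 9 of 15 measured members and lower in 3, against 25.0% and 22.7% of all records, with a median log2 ratio of 2.39 beside -0.05 for all records. GAS6, a ligand of the TAM receptor kinases, had 200 counts in the papilla and 2 in the epithelium, 123-fold (33.5 to 1020.0) higher. CYR61, a matricellular ligand of integrins, had 444 and 13 in the same order, 41.9-fold (24.3 to 79.3) higher, and ANGPTL2, a secreted angiopoietin-like protein, 605 and 34, 21.8-fold (15.5 to 31.8) higher. The 3 lower members were all of the EGF family, whose ligands act on epithelial growth. Amphiregulin (AREG) was unlisted in the papilla and had 250 counts in the epithelium, at least 67.9-fold lower. TGFA and EREG, at the count minimum, were unlisted in the papilla with 20 and 20 counts in the epithelium. Betacellulin (BTC), of the same family, had 148 counts in the papilla and 300 in the epithelium and lay within 2-fold. Their receptor EGFR was listed with 2 counts in the papilla and 6 in the epithelium, too few to compare.

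Growth factor receptors were higher in the papilla in 11 of 22 and lower in 5, against 25.0% and 22.7% of all records. Their median log2 ratio was 1.22, which turned to -1.60 at a minimum of 200 counts. The vascular receptor TIE1 had 51 counts in the papilla and 2 in the epithelium, 31.3-fold (8.23 to 265) higher, and PDGFRB, a receptor of pericytes and fibroblasts, 52 and 7, 9.12-fold (4.12 to 23.8) higher. PDGFRL, a receptor-like protein, was 12.04-fold (7.19 to 21.6) higher, with 157 counts in the papilla and 16 in the epithelium. LIFR, the receptor of leukaemia inhibitory factor, had 250 counts in the papilla and 936 in the epithelium, 3.05-fold (2.65 to 3.52) lower. KIT, the stem cell factor receptor of melanocytes, had 2 counts in the papilla and 162 in the epithelium, 66.0-fold (17.98 to 549.6) lower. KIT is itself among the melanocyte markers, which were lower in 7 of 7. Its ligand KITLG was unlisted in both libraries.

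In the FGF pathway 5 of 12 measured members were higher and 1 lower, against 25.0% and 22.7% of all records. FGFR1, the receptor isoform gene usual in mesenchyme, had 1039 counts in the papilla and 155 in the epithelium, 8.23-fold (6.94 to 9.803) higher. Its feedback inhibitors SPRED1 and SPRY2 were 4.86-fold (3.48 to 6.89) and 2.71-fold (1.72 to 4.36) higher, with 178 and 64 counts in the papilla and 45 and 29 in the epithelium. SPRED2 was within 2-fold, at a ratio of 1.53 (1.28 to 1.82). The extracellular carrier FGFBP1 had 255 counts in the papilla and 416 in the epithelium, also within 2-fold.

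BMP and TGF-beta receptors and modulators were higher in the papilla in 8 of 15 and lower in 0, against 25.0% and 22.7% of all records. The BMP antagonist CHRDL1 had 377 counts in the papilla and 14 in the epithelium, 33.05-fold (19.4 to 61.04) higher, and the antagonist NBL1 431 and 139, 3.81-fold (3.14 to 4.64) higher. Noggin (NOG), another antagonist, was sparse, with 23 counts in the papilla and none listed in the epithelium. The papilla had 2.97-fold (2.02 to 4.46) higher SMAD7, which blocks the signal inside the cell, while SMAD6 and the pseudoreceptor BAMBI, which dampens the same signals, lay within 2-fold with ratios of 0.719 (0.477 to 1.07) and 0.9102 (0.768 to 1.08). BAMBI had 244 counts in the papilla and 329 in the epithelium.

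Wnt receptors and modulators were split, with 5 of 17 higher and 5 lower, near the 25.0% and 22.7% of all records. Their median log2 ratio was -0.02, and 0.51 with the deposited values, where 8 were higher and 5 lower. FZD1 and PRICKLE2, a planar polarity component, were 3.79-fold (2.32 to 6.45) and 7.98-fold (4.07 to 17.4) higher in the papilla, with 68 and 65 counts in the papilla and 22 and 10 in the epithelium. FZD9 had 19 counts in the papilla and 182 in the epithelium, 7.805-fold (4.86 to 13.3) lower. The Wnt inhibitor APCDD1, itself a Wnt target, had 78 and 879 in the same order, 9.18-fold (7.28 to 11.7) lower, and the effector TCF7 was unlisted in the papilla with 51 counts in the epithelium. WLS, which carries Wnt proteins to the cell surface in secreting cells, had 286 counts in the papilla and 355 in the epithelium, a ratio of 0.989 (0.843 to 1.16). Frizzled genes were thus found on both sides, FZD1 and FZD2 higher and FZD9 lower in the papilla.

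Notch components were within 2-fold in 6 of 9, with 1 higher and 2 lower, against 25.0% and 22.7% of all records. With the deposited values 2 were higher and 1 lower. The receptor NOTCH1 had 394 counts in the papilla and 1588 in the epithelium, 3.28-fold (2.94 to 3.68) lower, while its ligands JAG1 and JAG2 had ratios of 0.891 (0.708 to 1.12) and 0.669 (0.567 to 0.788). The glycosyltransferases that tune the receptor went opposite ways: LFNG had 365 counts in the papilla and 166 in the epithelium, 2.699-fold (2.24 to 3.26) higher, and RFNG 54 and 189, 2.85-fold (2.097 to 3.93) lower.

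Guidance molecules steer cell contact and migration as well as axons. Semaphorins, plexins and neuropilins had 1 of 10 higher and 4 lower, with 5 within 2-fold, the Eph list had 1 of 5 higher and 2 lower, and the netrin and slit list 1 of 5 higher and 2 lower. Among all records 25.0% were higher and 22.7% lower. SEMA3G, a secreted semaphorin, had 3 counts in the papilla and 358 in the epithelium, 97.2-fold (33.0 to 474) lower. The membrane-bound SEMA4B had 12 and 338 in the same order, 22.9-fold (12.97 to 44.9) lower and SEMA4D 41 and 383, 7.61-fold (5.51 to 10.8) lower, whereas the receptor PLXNA1 had a ratio of 1.09 (0.893 to 1.32). The Eph receptor EPHA1, known in mammals for its epidermal expression, had 19 counts in the papilla and 393 in the epithelium, 16.9-fold (10.7 to 28.3) lower. EPHB3 was 3.19-fold (2.29 to 4.51) lower, with 46 counts in the papilla and 180 in the epithelium. EPHA5 ran against them, with 64 counts in the papilla and none listed in the epithelium. Of the netrin and slit list, NEO1 and FLRT3 were 5.805-fold (2.76 to 14.1) and 3.28-fold (2.33 to 4.71) lower in the papilla, with 8 and 42 counts in the papilla and 57 and 169 in the epithelium.

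Small peptide signals were higher in the papilla in 5 of 7 members and lower in 1, against 25.0% and 22.7% of all records. OSTN encodes osteocrin, a secreted peptide that binds the natriuretic clearance receptor. It had 2265 counts in the papilla and 120 in the epithelium, 23.2-fold (19.3 to 28.1) higher. RAMP1 and RAMP2, accessory proteins that set the ligand of calcitonin-family receptors, had 98 and 97 counts in the papilla and 2 and 2 in the epithelium. Endothelin 3 (EDN3), a growth signal of melanocytes, was unlisted in the papilla and had 52 counts in the epithelium, at least 14.1-fold lower. Its paired receptors had too few counts to compare. EDNRB had 7 in the papilla and 11 in the epithelium, and EDNRB2 had 2 and none listed. The endothelin receptor EDNRA, paired here with EDN1, had 226 and 122 counts in papilla and epithelium, 2.27-fold (1.82 to 2.86) higher in the papilla. In the lipid mediator list, ENPP2, the secreted enzyme that makes lysophosphatidic acid, had 989 counts in the papilla and 42 in the epithelium, 28.9-fold (21.2 to 40.4) higher. LPAR6, a receptor for that lipid, was within 2-fold with 77 and 92 counts in the same order. SPHK1, which makes sphingosine 1-phosphate, was 5.57-fold (3.61 to 8.94) lower in the papilla, with 24 counts in the papilla and 164 in the epithelium, and LTA4H, of leukotriene synthesis, was 3.04-fold (2.51 to 3.697) higher.

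Over all signalling lists, 52 of 130 measured members (40.0%) were higher in the papilla and 27 (20.8%) lower, against 25.0% and 22.7% of all records. With the deposited values the counts were 62 and 23, beside 2233 and 861 of all 6362 records. The transcription factor lists held 29 of 70 higher (41.4%) and 27 lower (38.6%), or 31 and 22 with the deposited values. These tallies also count the splicing regulators ESRP1 and ESRP2, which are in the epithelial list. Because members were chosen with earlier results of these data known, the shares describe the listed members and are no evidence of an excess.

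Mesenchymal transcription factors were higher in the papilla in 14 of 15 measured members and lower in 0, against 25.0% and 22.7% of all records. With no count minimum 23 of 32 were higher and 0 lower, where 2336 of all records were higher and 1784 lower. Of the 15, 6 were unlisted in the epithelium and passed the count minimum through the papilla alone. The list is defined by tissue, so its direction mainly checks the labels and is no separate result. PRRX2, the partner of PRRX1 in limb and skin mesenchyme, had 143 counts in the papilla and none listed in the epithelium, at least 58.5-fold higher. HAND2, a patterning factor of limb and neural crest mesenchyme, had 111 counts in the papilla and none listed in the epithelium, at least 45.4-fold higher, and the corepressor RUNX1T1 had 115 and none. ZEB1, a repressor of epithelial genes, had 239 counts in the papilla and 7 in the epithelium, 41.9-fold (20.03 to 105) higher. TWIST2 and FOXF1, factors of dermal and splanchnic mesenchyme, had 58 and 56 counts in the papilla and none listed in the epithelium. MEOX2, a homeobox factor of mesoderm, had 64 counts in the papilla and 2 in the epithelium. SNAI2, another repressor of epithelial genes, was the member within 2-fold, with 196 counts in the papilla and 127 in the epithelium, a ratio of 1.89 (1.51 to 2.39).

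The list of epithelial transcription factors was lower in the papilla in 18 of 25 and higher in 1, against 22.7% and 25.0% of all records. The higher member was BARX2, with 45 counts in the papilla and none listed in the epithelium. With no count minimum 21 of 39 were lower and 2 higher. This list too is defined by tissue, so its direction mainly checks the labels. SATB1, a chromatin organiser of epidermal gene clusters in mice, had 12 counts in the papilla and 634 in the epithelium, 43.05-fold (24.5 to 83.8) lower. GRHL3, a barrier regulator, had 8 and 454 in the same order, 46.2-fold (23.3 to 108) lower, and KLF5, a factor of proliferating basal cells, 12 and 358, 24.3-fold (13.7 to 47.5) lower. The ETS factor EHF had 3 counts in the papilla and 92 in the epithelium, and FOXN1, the nude locus factor of hair and thymic epithelium, was unlisted in the papilla with 55 in the epithelium. GATA3, which directs hair and epidermal lineages in mice, had 56 counts in the papilla and 590 in the epithelium, 8.58-fold (6.52 to 11.5) lower. MSX2, a BMP-responsive homeobox factor, had 28 and 253 in the same order, 7.36-fold (4.97 to 11.3) lower. The splicing regulators ESRP1 and ESRP2, which set epithelial isoforms, were 16.8-fold (6.96 to 52.8) and 3.48-fold (3.13 to 3.87) lower, with 5 and 427 counts in the papilla and 103 and 1823 in the epithelium. They are counted in the list although they are not transcription factors. TP63, the master factor of stratified epithelium, had 29 counts in the papilla and 56 in the epithelium, within 2-fold at a ratio of 0.636 (0.391 to 1.01). Keratinocyte markers, a list that also holds GRHL3, moved the same way, 11 of 15 being lower in the papilla and 1 higher.

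Factors of endothelium and melanocytes had the direction of those cells' markers, 8 of 8 endothelial markers being higher and 7 of 7 melanocyte markers lower in the papilla. SOX18 is itself counted among those endothelial markers and MITF among those melanocyte markers, so the tallies are no separate support for these factors. SOX18 and FLI1, of endothelium, had 303 and 147 counts in the papilla and 4 and 3 in the epithelium, 92.97-fold (35.9 to 343) and 60.1-fold (20.2 to 295) higher. NR2F2, a nuclear receptor of veins and mesenchyme, was 10.3-fold (5.93 to 19.5) higher, with 118 counts in the papilla and 14 in the epithelium. MITF, the melanocyte master factor, had 18 counts in the papilla and 54 in the epithelium, 2.44-fold (1.41 to 4.43) lower. In this list 8 of 12 were higher and 3 lower, against 25.0% and 22.7% of all records.

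HOX genes, which encode position along the body, were split, 2 of 7 being higher and 3 lower, against 25.0% and 22.7% of all records. With the deposited values 2 were higher and 2 lower. HOXA7 had 168 counts in the papilla and 14 in the epithelium, 14.7-fold (8.54 to 27.5) higher, and HOXD8 209 and 35, 7.33-fold (5.11 to 10.8) higher. HOXA11, of a more distal body address, had 4 counts in the papilla and 103 in the epithelium, 20.98-fold (7.95 to 78.5) lower, and HOXA4 was 2.497-fold (1.65 to 3.88) lower. The labels do not say from which body region each tissue came, so region and tissue cannot be told apart for these genes. The list of SOX factors and inhibitors of DNA binding was higher in 5 of 8 and lower in 2 (6 and 1 with the deposited values), against 25.0% and 22.7% of all records. Of the inhibitors of DNA binding, which block basic helix-loop-helix factors and are BMP targets, ID4 had 436 counts in the papilla and 41 in the epithelium, 13.1-fold (9.46 to 18.4) higher, ID1 224 and 48, 5.73-fold (4.18 to 7.995) higher, and ID2 2175 and 844, 3.16-fold (2.92 to 3.43) higher. Among nuclear receptors 2 of 8 were higher and 2 lower, near the 25.0% and 22.7% of all records. The circadian repressor NR1D2 had 12 counts in the papilla and 78 in the epithelium, 5.296-fold (2.87 to 10.7) lower.

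**Figure D3:**
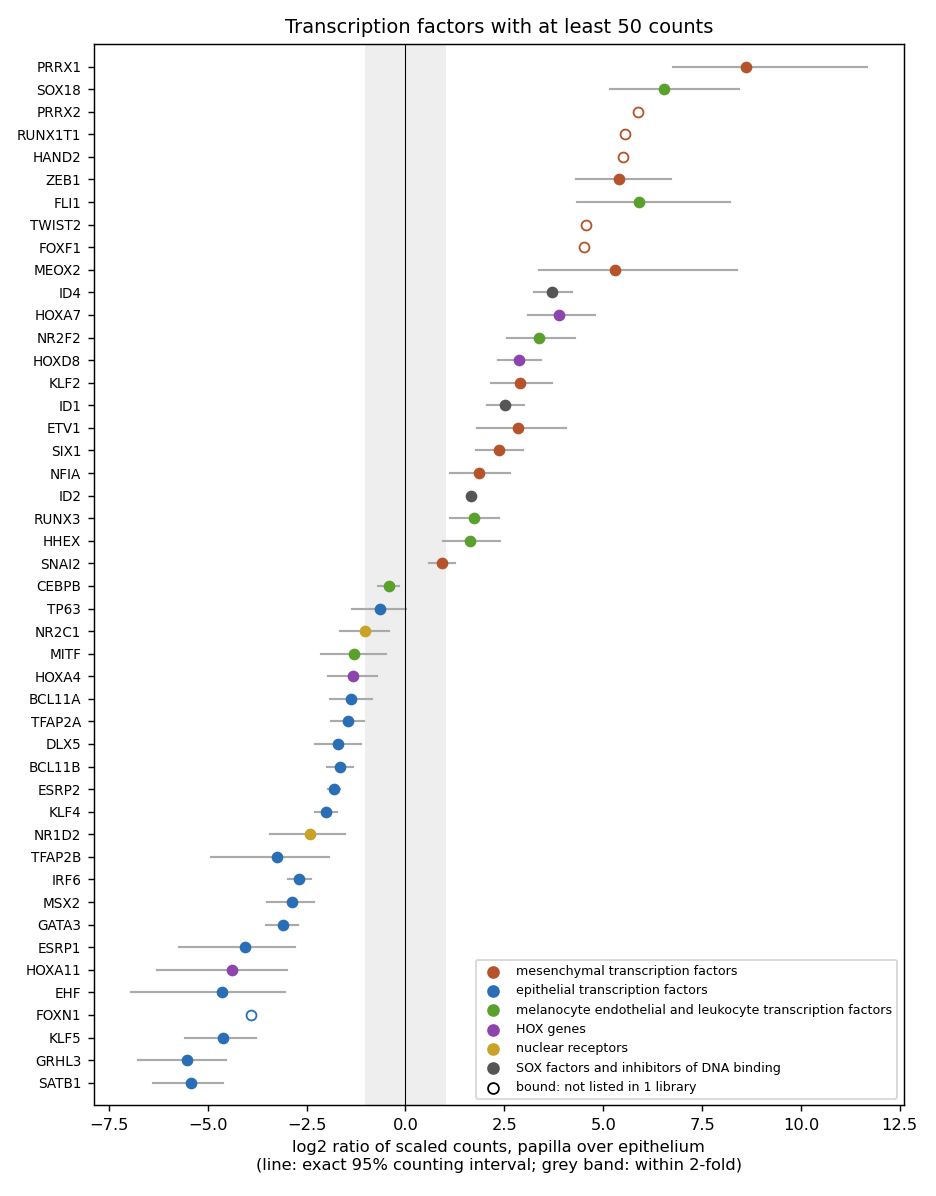
Log2 ratio of scaled counts, papilla over epithelium, for the transcription factors shown, each with at least 50 counts in the higher library, ordered by ratio on CPM plus 1. Lines are exact 95% counting intervals, open circles are bounds for genes not listed in 1 library, colours give the list and the grey band marks 2-fold. Mesenchymal factors occupy the right side and epithelial factors the left, with HOXA7 and HOXD8 to the right and HOXA4 and HOXA11 to the left. The epithelial list includes the splicing regulators ESRP1 and ESRP2.

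Metabolic lists had 71 of 275 measured members (25.8%) higher in the papilla and 82 (29.8%) lower. Of all records 25.0% were higher and 22.7% lower, so the higher share was near that of all records and the lower share above it. These members too were chosen with earlier results known, so the shares describe them only. With the deposited values 94 were higher and 52 lower, while all 6362 records shifted as well, to 2233 higher and 861 lower. Glycogen enzymes were higher in the papilla in 5 of 8 and lower in 1. The glycogen phosphorylase PYGB, which releases glucose 1-phosphate, had 437 counts in the papilla and 40 in the epithelium, 13.4-fold (9.69 to 19.03) higher. PGM1, which converts that product onward, had 144 and 21 in the same order, 8.42-fold (5.303 to 14.01) higher, and the branching enzyme GBE1 313 and 81, 4.74-fold (3.704 to 6.13) higher. The liver-type phosphorylase PYGL and the primer glycogenin GYG1 lay within 2-fold, with ratios of 1.32 (1.07 to 1.62) and 0.969 (0.806 to 1.16).

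In glycolysis 4 of 17 members were higher and 4 lower (6 and 2 with the deposited values), shares near the 25.0% and 22.7% of all records. GAPDH was at 13346 counts in the papilla and 15774 in the epithelium, a ratio of 1.04 (1.01 to 1.06). PFKP, of the committing step, was 2.26-fold (1.98 to 2.58) higher in the papilla, with 633 counts in the papilla and 344 in the epithelium. The later enzymes PGAM1 and ENO1 had 758 and 1329 counts in the papilla and 3130 and 5477 in the epithelium, 3.36-fold (3.11 to 3.65) and 3.36-fold (3.16 to 3.57) lower. PDK3, a kinase that restrains pyruvate entry into mitochondria, was 2.67-fold (1.904 to 3.78) higher in the papilla, and its target subunit PDHA1 was 2.38-fold (2.06 to 2.76) lower, with 248 counts in the papilla and 724 in the epithelium. In the citric acid cycle 5 of 18 were higher and 1 lower, against 25.0% and 22.7% of all records. IDH3A had 203 counts in the papilla and 24 in the epithelium, 10.4-fold (6.78 to 16.6) higher, MDH1, the cytosolic malate dehydrogenase, 871 and 241, 4.44-fold (3.84 to 5.14) higher, and SDHA 578 and 260, 2.73-fold (2.35 to 3.17) higher, whereas ACO1 and SDHD had ratios of 0.996 (0.772 to 1.28) and 1.06 (0.924 to 1.23).

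Phosphagen and adenylate kinases buffer ATP in contractile and other cells. The creatine kinase CKB had 5341 counts in the papilla and 1319 in the epithelium, 4.97-fold (4.68 to 5.28) higher, and the adenylate kinase AK5 126 and 6, 25.8-fold (11.5 to 71.6) higher, while AK4, its mitochondrial relative, was 2.33-fold (1.69 to 3.27) lower. Smooth muscle markers were higher in the papilla in 10 of 11, and their part in these differences was not tested.

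Lipid synthesis separated the tissues gene by gene. Of 17 measured genes of fatty acid synthesis and elongation 5 were higher and 9 lower in the papilla, against 25.0% and 22.7% of all records. With the deposited values 6 were higher and 6 lower. The fatty acid synthase FASN had 6 counts in the papilla and 336 in the epithelium, 45.6-fold (20.7 to 125) lower, and ELOVL4, which makes the very long chains of barrier lipids, 7 and 734, 85.4-fold (41.3 to 213) lower. ELOVL6 was 6.58-fold (4.33 to 10.4) lower, with 25 counts in the papilla and 202 in the epithelium. Against them, THRSP, a nuclear regulator of fat synthesis, had 1103 counts in the papilla and 47 in the epithelium, 28.8-fold (21.5 to 39.4) higher, and the desaturase FADS2 had 296 and 41, 8.86-fold (6.38 to 12.6) higher. Sphingolipid genes were higher in 0 of 15 and lower in 6 (2 and 4 with the deposited values): the alkaline ceramidase ACER1 was unlisted in the papilla with 112 counts in the epithelium, at least 30.4-fold lower, the ceramide synthase CERS4 had 29 counts in the papilla and 207 in the epithelium, 5.82-fold (3.93 to 8.901) lower, and the glucosylceramide synthase UGCG 52 and 187, 2.93-fold (2.15 to 4.07) lower.

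Cholesterol synthesis and uptake were higher in 2 of 17 and lower in 6 (2 and 3 with the deposited values), against 25.0% and 22.7% of all records. LSS and MSMO1, enzymes of sterol synthesis, had 121 and 100 counts in the papilla and 553 and 515 in the epithelium, 3.72-fold (3.05 to 4.57) and 4.196-fold (3.38 to 5.25) lower, and the regulator SREBF2 was 2.77-fold (2.31 to 3.32) lower. The sterol carrier STARD4 ran the other way, with 80 counts in the papilla and 6 in the epithelium, 16.4-fold (7.197 to 45.9) higher. Fatty acid oxidation was higher in 2 of 21 and lower in 8. With the deposited values 4 were higher and 3 lower, a setting that shifted all records toward the papilla. CPT2, which brings acyl groups into the mitochondrial matrix, had 10 counts in the papilla and 65 in the epithelium, 5.296-fold (2.704 to 11.6) lower, and HADH of the same spiral had a ratio of 0.934 (0.844 to 1.03).

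Amino acid and polyamine enzymes were higher in 8 of 26 and lower in 8 (10 and 6 with the deposited values), near the 25.0% and 22.7% of all records. IVD, of leucine breakdown, had 237 counts in the papilla and 35 in the epithelium, 8.31-fold (5.81 to 12.2) higher, and DBT, of branched-chain amino acid breakdown, 157 and 26, 7.41-fold (4.87 to 11.7) higher. The glutamine synthetase GLUL had 80 counts in the papilla and 7 in the epithelium, 14.03-fold (6.503 to 36.01) higher, and AMD1, of polyamine synthesis, was 4.25-fold (3.59 to 5.04) higher. Of the lower, the arginine and proline route enzymes ASS1 and ALDH18A1 had 46 and 57 counts in the papilla and 267 and 308 in the epithelium, 4.73-fold (3.45 to 6.62) and 4.403-fold (3.31 to 5.95) lower. Serine and one-carbon genes were lower in 5 of 8 and higher in 1, the same with the deposited values. PHGDH, the first step of serine synthesis, had 22 counts in the papilla and 258 in the epithelium, 9.55-fold (6.18 to 15.5) lower, PSAT1, the next step, 7 and 82, 9.54-fold (4.43 to 24.5) lower, and TYMS, which spends one-carbon units on thymidylate, 34 and 172, 4.12-fold (2.84 to 6.14) lower. In purine and pyrimidine synthesis 2 of 24 were higher and 6 lower (7 and 4 with the deposited values), against 25.0% and 22.7% of all records. ATIC, of purine assembly, was 3.22-fold (2.88 to 3.59) lower in the papilla with 413 counts in the papilla and 1630 in the epithelium.

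The list of sulfur amino acid and glutathione metabolism held members with large differences on both sides, 5 of 21 higher and 9 lower, against 25.0% and 22.7% of all records. The secreted glutathione peroxidase GPX3 had 4840 counts in the papilla and 92 in the epithelium, 64.6-fold (52.5 to 80.2) higher, and GPX7, of the endoplasmic reticulum, 138 and 10, 16.9-fold (8.94 to 36.1) higher. Thioredoxin (TXN), a cytosolic reductant of protein disulfides, had 2948 counts in the papilla and 34993 in the epithelium, 9.67-fold (9.31 to 10.1) lower. The glutathione transferase GSTA3 had 68 and 1159 in the same order, 13.9-fold (10.9 to 18.01) lower, AHCY, which recycles the product of methylation, 130 and 928, 5.82-fold (4.84 to 7.04) lower, and CHAC1, which degrades glutathione, 9 and 131, 11.9-fold (6.06 to 26.5) lower. GCLM and GPX4 were within 2-fold, with ratios of 0.945 (0.827 to 1.08) and 0.845 (0.674 to 1.06). In the metal list 2 of 14 were higher and 5 lower (3 and 3 with the deposited values). The metallothionein records MT3 and MT4, similar small genes whose reads may be shared, had 429 and 9 counts in the papilla and 8241 and 228 in the epithelium, 15.7-fold (14.2 to 17.3) and 20.6-fold (10.7 to 45.7) lower. Ferritin heavy chain FTH1 had 9337 counts in the papilla and 3336 in the epithelium, 3.44-fold (3.302 to 3.58) higher, and the iron exporter SLC40A1 was 2.76-fold (2.16 to 3.56) lower.

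Glycosaminoglycan and proteoglycan genes were higher in 11 of 22 and lower in 2, against 25.0% and 22.7% of all records. The counts were 16 and 0 with the deposited values and 8 and 1 with a pseudocount of 5. Collagen processing genes were higher in 11 of 16 and lower in 2, with the deposited values too. SULF1, a secreted sulfatase that edits heparan sulfate, had 287 counts in the papilla and 6 in the epithelium, 58.7-fold (26.6 to 161) higher, and PAPSS1, which makes the sulfate donor, 272 and 51, 6.55-fold (4.84 to 9.01) higher. Of the collagen crosslinking oxidases, LOXL1 had 513 counts in the papilla and 16 in the epithelium, 39.4-fold (24.0 to 69.4) higher, and LOXL2 109 and 2, 66.9-fold (18.1 to 559) higher. The prolyl isomerase FKBP9 had 2630 counts in the papilla and 68 in the epithelium, 47.5-fold (37.3 to 61.3) higher. The prolyl hydroxylase subunits differed: P4HA3 had 82 counts in the papilla and none listed in the epithelium, whereas P4HA1 and P4HB had ratios of 0.825 (0.668 to 1.02) and 0.834 (0.749 to 0.928). Among hormone enzymes, DIO2, which activates thyroid hormone, had 245 counts in the papilla and 19 in the epithelium, 15.8-fold (9.92 to 26.7) higher, and HSD3B1, of steroid synthesis, 4 and 78, 15.9-fold (5.96 to 59.8) lower.

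**Figure D4:**
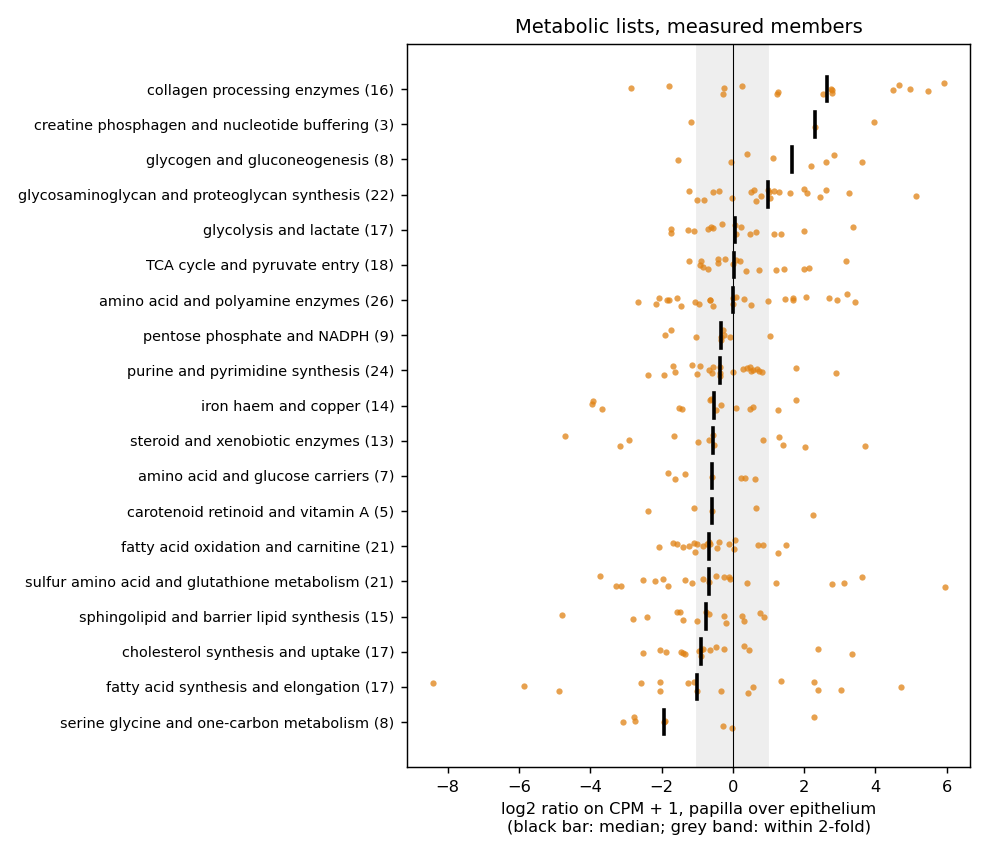
Log2 ratio on CPM plus 1, papilla over epithelium, of each measured member of the metabolic lists with at least 3 measured members (number in brackets), ordered by median. Each point is 1 gene, the black bar is the list median and the grey band marks 2-fold. Collagen processing, phosphagen and glycogen lists have medians above 1 and serine and one-carbon metabolism the lowest, and every list shown has members on both sides of 0.

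The remaining libraries show how far a difference held outside this pair. BOC stood at 430.2 CPM in the growth-phase papilla, 423 in the resting papilla, 179 at day 2, 117 at day 4, 194 in the pulp and 35.96 in the epithelium; both papillae were high and the epithelium lowest. OSTN stood at 666 CPM in the growth-phase papilla, 303 in the resting papilla, 69.95 at day 2, 73.4 at day 4, 1.55 in the pulp and 28.8 in the epithelium; it was high in the papillae of both phases and lowest in the pulp. PTN stood at 105 CPM in the growth-phase papilla, 12.9 in the resting papilla, 4.899 at day 2, 18.3 at day 4, 319 in the pulp and 1.199 in the epithelium; here the pulp was highest and the growth-phase papilla next. PHGDH stood at 6.47 CPM in the growth-phase papilla, 2.75 in the resting papilla, 4.899 at day 2, 2.29 at day 4, 125 in the pulp and 61.9 in the epithelium; the pulp lay above the epithelium, so a low level was not shared by all mesenchyme. FASN stood at 1.76 CPM in the growth-phase papilla, 2.198 in the resting papilla, 1.09 at day 2, 1.02 at day 4, 37.5 in the pulp and 80.5 in the epithelium, with pulp and epithelium above the others. SATB1 stood at 3.53 CPM in the growth-phase papilla, 3.57 in the resting papilla, 7.62 at day 2, 13.96 at day 4, 10.3 in the pulp and 152 in the epithelium, highest in the epithelium by a wide margin. CKB stood at 1572 CPM in the growth-phase papilla, 696 in the resting papilla, 412 at day 2, 925 at day 4, 179 in the pulp and 316 in the epithelium, highest in the growth-phase papilla. PYGB stood at 129 CPM in the growth-phase papilla, 52.5 in the resting papilla, 17.7 at day 2, 18.8 at day 4, 19.3 in the pulp and 9.59 in the epithelium, again highest in the growth-phase papilla, with the resting papilla next. HOXA11 stood at 1.18 CPM in the growth-phase papilla, 1.92 in the resting papilla, 4.36 at day 2, unlisted at day 4, 44.2 in the pulp and 24.7 in the epithelium; the pulp was highest, followed by the epithelium. The epithelium and pulp libraries were sequenced to greater depth than the other 4, with listed sums of 2428052 and 2364748 against 1375518 to 1499592, so the low values rest on more counts there.

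**Figure D5:**
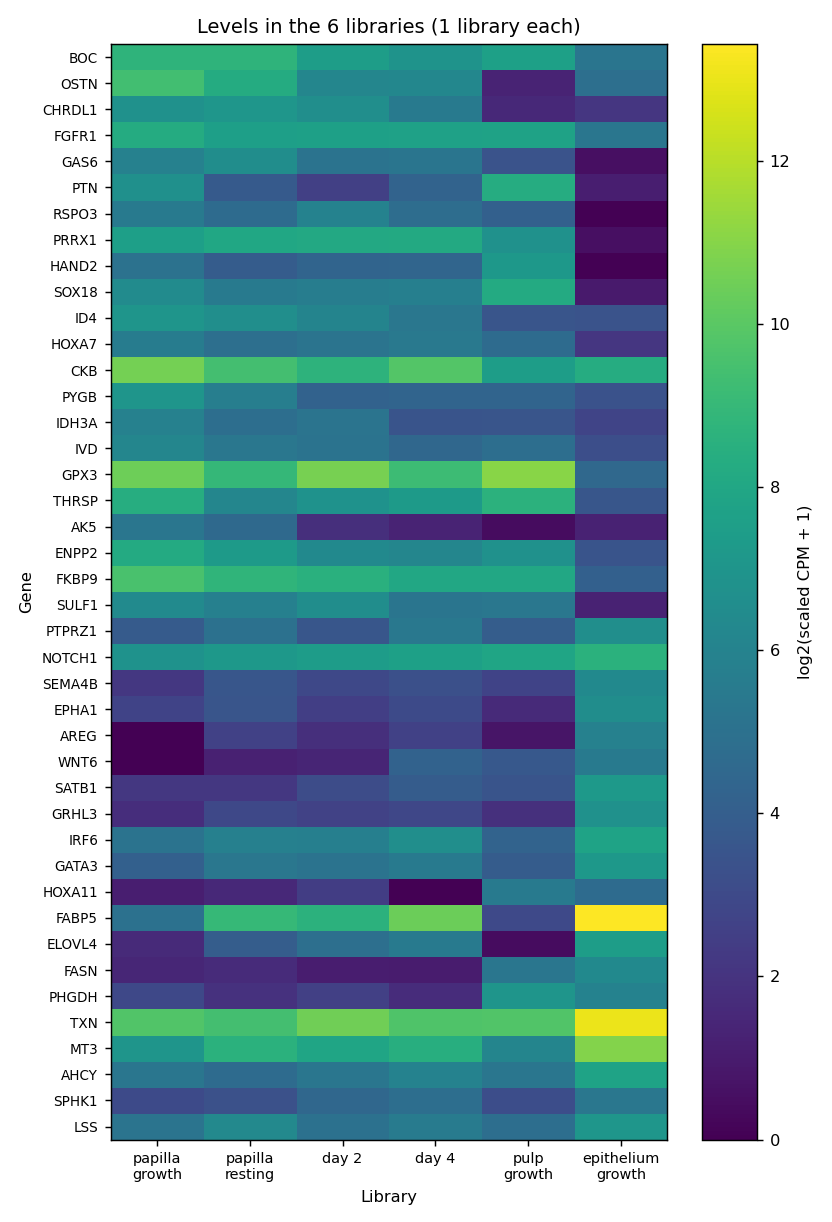
Levels of 42 genes as log2 of scaled CPM plus 1 (colour) in the 6 libraries, 1 library per column, with the growth-phase papilla at the left and the growth-phase epithelium at the right. CHRDL1 and ID4 are low in both pulp and epithelium, PTN, HAND2 and PHGDH have their highest level in the pulp, and FABP5 and TXN in the epithelium.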

How the data were processed

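The deposited tables, made by the authors, hold raw read counts per RefSeq record and, per the file headers, a column headed as TPM per gene; its values divide each count by 1 library total and were treated as RPM, reads scaled to the library total. The submitters' processing notes name mm10, a mouse build; aligner, counter and strand: not given in the sources used here. Transcript lengths and sequences were not used here, so levels are not compared between genes.

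Counts of the 6 libraries were joined by record, with unlisted records as 0. Of the 10964 records, 4821 had a gene symbol in the deposited descriptions. Another 5017 were named through a RefSeq gene table. BMP8A and FA2H are such records, described only as hypothetical in the deposited data. Library totals were recovered from counts divided by deposited RPM over records with at least 500 counts, and scaled by TMM in edgeR 4.0.16 (R 4.3.3). Ratios on CPM used a pseudocount of 1; intervals are exact conditional binomial (Clopper-Pearson), computed in Python 3.11.15 with scipy 1.17.1. The calculation was tested on simulated data.

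Members and lists were chosen with earlier results of these data known. Named genes were, per list, up to 6 with the largest differences at 50 or more counts and up to 2 nearest a ratio of 1, the members of separated pairs, the 15 highest and 15 lowest named records, and the 10 highest and 10 lowest members of each category. BARX2, BMP7, EDNRB, EDNRB2, EGFR, EREG, FGF7, FZD7, GDF10, IGF1R, KITLG, NOG, PDGFRA, RSPO3, TGFA, TP63 and WNT6, and the genes of the closing section unless stated there, were named outside that rule, after their values were seen. The 11 alternatives covered scaling (among them DESeq2 1.42.0 size factors), pseudocount, count minimum, fold and summing of records per symbol. Some members of the lists are counted but not reported singly here.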

Additional observations from a re-analysis of the deposited data

How the results depend on the processing

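No paired analysis was possible because each tissue has 1 library, and no library could be left out. The count of records higher in the papilla was 459 at a minimum of 200 counts and 856 with a 4-fold rule. The count of records lower was 861 with the deposited values, 541 at a minimum of 200 counts and 493 with a 4-fold rule. Pairs with papilla ligand and epithelial receptor numbered 5 with a pseudocount of 0.1, 1 at a minimum of 200 counts and 1 with a 4-fold rule. Pairs with epithelial ligand and papilla receptor numbered 5 with the deposited values, 5 with no count minimum and 0 at 200 counts. Pairs with both higher in the papilla numbered 5 with the deposited values and 0 at 200 counts.

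List medians reversed for growth factor receptors (-1.60 at 200 counts), for melanocyte, endothelial and leukocyte transcription factors (-0.42 at 200 counts) and for phosphagen enzymes (-0.15 with no minimum); these settings change which members are measured. The genes followed under the 11 alternatives were the 280 named by list, category or separated pair. Of these, 0 changed from a call in 1 direction to the other. That count is no strong check, because pseudocount, count minimum and fold rule cannot turn the sign of a gene's ratio. The scalings moved the median log2 ratio of all records only from -0.05 to between -0.12 and 0.45. The sign of a ratio near 1 did change with the deposited values for 26 of the genes followed and 5 list medians. With upper-quartile scaling it changed for 4 genes and 3 list medians. Counting error limits genes with under about 20 counts, and the spread between birds is unknown.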

Other observations

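Genes outside the lists also stood far apart, and those given here were chosen after their values were seen, except ADIPOQ, PGM5, CAP2 and GUCY1A3, which are among the 15 highest named records. Adiponectin (ADIPOQ), a hormone of fat cells, had 1598 counts in the papilla and 10 in the epithelium, 196-fold (106 to 409.8) higher. The contractile-cell genes PGM5 and CAP2 had 1801 and 1725 counts in the papilla and 8 and 11 in the epithelium. GUCY1A3, a subunit of the nitric oxide receptor, had 507 counts in the papilla and none listed in the epithelium, at least 207-fold higher. Smooth muscle markers were higher in the papilla in 10 of 11, and their part in these values was not tested. Transcription factors outside the lists were also high: ZIC1 had 237 counts in the papilla and 3 in the epithelium, and LBX1 213 and none listed. In the pulp ZIC1 and LBX1 were higher still, at 115.9 and 128.1 CPM against 69.73 and 62.67 CPM in the growth-phase papilla. The cytokine IL17D had 111 counts in the papilla and none listed in the epithelium.

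On the other side, epigen (EPGN), an EGF family ligand, was unlisted in the papilla and had 125 counts in the epithelium, at least 33.95-fold lower. BMP8A, a BMP ligand, was likewise unlisted in the papilla with 119 counts in the epithelium, and WNT5B had 4 in the papilla and 117 in the epithelium, 23.8-fold (9.06 to 88.9) lower. The secreted factor METRNL had 158 counts in the papilla and 2640 in the epithelium, 13.6-fold (11.6 to 16.1) lower. The NF-kappaB regulator NFKBIZ had 30 and 1245 in the same order, 33.8-fold (23.6 to 50.3) lower. Of lipid genes outside the lists, FA2H, which hydroxylates the fatty acids of ceramides, had 6 counts in the papilla and 620 in the epithelium, 84.2-fold (38.5 to 230.3) lower, and SPTSSB, a subunit of serine palmitoyltransferase, 18 and 670, 30.3-fold (19.04 to 51.5) lower, whereas SCP2, a sterol carrier protein, had 416 and 6, 85.1-fold (38.8 to 233) higher. The cornification enzyme TGM3 was unlisted in the papilla and had 300 counts in the epithelium, at least 81.5-fold lower.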
